A study of Mus musculus with 2 samples.

Results

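The tumour cells described here are the 278 of 5554 filtered cells with the largest share of their transcripts in 6 immediate early genes, Fos, Fosb, Egr1, Egr2, Jun and Ier2. They were chosen from single-cell counts of unique molecular identifiers (UMIs, 1 per captured transcript): barcodes were kept if they had 5000 or more UMIs, 500 or more genes and no more than 10% mitochondrial UMIs, and the top 5% of the cells of both libraries together by the summed share of the 6 genes were taken. They are called IEG-high cells below, and the 5276 remaining cells are the other cells. The cells came from MC38, a mouse colon carcinoma line grown as tumours in C57BL/6 albino mice; tumour fragments were cultured in collagen in a microfluidic chip, digested on day 6 and sorted for tumour cells before droplet 3′ sequencing. The aPD-1 library was treated with clone RMP1-14, an antibody that blocks the inhibitory T cell receptor PD-1, and the IgG library with the isotype control clone 2A3, both at 10 µg/mL. The series states its aim as profiling residual tumour cells after the blockade. There was 1 library per treatment, so differences between the treatments cannot be told apart from differences in culture, sorting or loading, and no test was possible. The labels state neither the number of mice nor the sort markers.

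Immediate early genes are transcribed within minutes of a signal without new protein synthesis, because their promoters are driven by factors already present, such as CREB, ATF and SRF with its ETS-family partners. Their transcripts are short-lived. Fos, Fosb and Jun encode subunits of the AP-1 transcription factor, Egr1 and Egr2 encode zinc finger transcription factors, and Ier2 encodes a small nuclear protein. In tumour cells they follow growth factor, stress and inflammatory signals, and they are also known to respond to tissue dissociation, a step that both libraries went through. The enzymatic digestion and its part in the levels below were not tested.

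The bases upstream of 6 genes are shown because these genes head the results: 4 of the 6 genes used to choose the cells, and Dusp1 and Btg2, which had some of the highest ratios in IEG-high cells without having been used. Egr1 and Ier2 are named only. Each run holds the 250 bases before the annotated transcription start, 5′ to 3′ on the gene's strand, from RefSeq on GRCm38.p6 (mm10). Capitals mark matches to TGACG, which occurs in both strands of the cyclic AMP response element TGACGTCA, to GCGNGGGCG, a site of EGR proteins, and to the CArG box, the SRF site, on either strand. TGANTCA, the AP-1 site, was searched too and had no match in these 6 windows. Overlapping TGACG sites in the palindrome TGACGTCA counted as 2 matches.
Fos (chr12:85473640-85473889, plus strand): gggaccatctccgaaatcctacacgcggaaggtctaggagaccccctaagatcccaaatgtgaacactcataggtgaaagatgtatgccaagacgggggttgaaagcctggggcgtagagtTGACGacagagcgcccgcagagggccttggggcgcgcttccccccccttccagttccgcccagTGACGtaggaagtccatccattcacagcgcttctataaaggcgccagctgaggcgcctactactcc
Fosb (chr7:19310046-19310295, minus strand): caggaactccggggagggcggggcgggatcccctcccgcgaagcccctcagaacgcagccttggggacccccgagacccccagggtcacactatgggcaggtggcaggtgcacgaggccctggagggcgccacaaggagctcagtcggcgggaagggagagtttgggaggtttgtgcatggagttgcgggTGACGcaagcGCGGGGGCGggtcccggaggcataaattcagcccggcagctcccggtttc
Egr2 (chr10:67537619-67537868, plus strand): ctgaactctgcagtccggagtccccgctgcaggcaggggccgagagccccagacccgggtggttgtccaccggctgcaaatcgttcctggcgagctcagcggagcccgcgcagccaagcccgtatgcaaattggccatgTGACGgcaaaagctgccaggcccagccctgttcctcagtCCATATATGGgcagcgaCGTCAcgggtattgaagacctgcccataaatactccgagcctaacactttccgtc
Jun (chr4:95052223-95052472, minus strand): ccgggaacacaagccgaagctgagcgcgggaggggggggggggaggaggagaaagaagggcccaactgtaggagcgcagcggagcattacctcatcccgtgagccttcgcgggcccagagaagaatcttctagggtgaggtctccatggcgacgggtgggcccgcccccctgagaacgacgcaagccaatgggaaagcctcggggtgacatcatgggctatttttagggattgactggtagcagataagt
Dusp1 (chr17:26508473-26508722, minus strand): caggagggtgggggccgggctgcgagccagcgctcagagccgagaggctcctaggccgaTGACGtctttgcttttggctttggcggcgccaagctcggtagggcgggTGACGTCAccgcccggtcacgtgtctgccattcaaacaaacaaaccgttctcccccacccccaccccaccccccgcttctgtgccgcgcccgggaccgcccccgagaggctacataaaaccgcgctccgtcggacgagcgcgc
Btg2 (chr1:134079156-134079405, minus strand): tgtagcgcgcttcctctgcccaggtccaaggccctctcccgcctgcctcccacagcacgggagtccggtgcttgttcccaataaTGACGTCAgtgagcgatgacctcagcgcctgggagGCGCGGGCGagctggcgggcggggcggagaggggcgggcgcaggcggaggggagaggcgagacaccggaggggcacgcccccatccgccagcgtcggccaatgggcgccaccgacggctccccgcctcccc
Fos had 2 TGACG sites, starting 129 and 66 bases before the transcription start. Egr2 had 2 TGACG sites and a CArG box, Fosb had 1 TGACG site and 1 EGR site, and Jun had no match in this window. Dusp1 had 3 TGACG matches, 2 of which formed a palindrome 143 bases before the start. Btg2 had the same palindrome 166 bases before the start and an EGR site. TGACG lay in the upstream window of 19.8% of all 27025 genes with an entry and of 33.4% of 5357 such genes that were compared below, against 21 of 37 (56.8%) of the other immediate early genes with an entry. For the EGR site these shares were 5.33%, 10.7% and 35.1% (13 of 37), for the CArG box 1.62%, 1.31% and 5.41% (2 of 37), and for TGANTCA 7.82%, 4.98% and 8.11% (3 of 37). For the longer TGACGT they were 7.29%, 13.0% and 29.7% (11 of 37). Among 256 of the genes counted below as higher in IEG-high cells, TGACG lay in 31.2%, the EGR site in 10.5%, TGACGT in 16.0%, the CArG box in 1.56% and TGANTCA in 12.1% (31 genes), so in this set the share of TGACG was not above that of all genes compared. Genes with several annotated starts were counted once if any window matched. These matches describe letters in the windows and no binding was measured.

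The aPD-1 library held 3356 kept cells with a median of 16577 UMIs, and the IgG library 2198 with a median of 20663. Between the libraries 8 kept barcodes were shared. IEG-high cells were shallower than the other cells: medians were 12760 against 16729 UMIs in aPD-1 and 15580 against 21040 in IgG. Median mitochondrial shares were 3.51% against 3.61% in aPD-1 and 3.08% against 2.90% in IgG. The tumour label was checked against markers. All 7 epithelial markers searched, Epcam, Krt8 and Krt18 among them, were at 0 in aPD-1 IEG-high cells and summed to 0.959 CPM in IgG IEG-high cells, where CPM is the UMI count of a gene per 1000000 UMIs summed over the cells of a group, so the label rests on the sort. Of the immune markers, Cd3e, Ptprc and Adgre1 had no UMI in the IEG-high cells of either library. Other immune markers did: 7 of 15 macrophage or monocyte markers had a UMI in aPD-1 IEG-high cells and 10 in IgG. The 1 of these 15 that reached 10 CPM was higher in IEG-high cells, with log2 ratios of 1.51 in aPD-1 and 0.51 in IgG. The 15 macrophage or monocyte markers summed to 30.7 CPM in IEG-high cells against 21.9 CPM in other cells of aPD-1, and to 38.3 against 59.3 CPM in IgG. The 10 endothelial markers summed to 11.99 against 26.4 CPM in aPD-1 and 16.0 against 72.8 CPM in IgG. Fibroblast markers moved with the IEG-high cells: the 13 genes summed to 1474 against 729 CPM in aPD-1 and 1711 against 1085 CPM in IgG, with Thy1 and Lum at 0 in IEG-high cells of both libraries. The part of this mesenchymal signal in the results below was not tested beyond leaving out the fibroblast-like cluster, as given with the other immediate early genes.

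IEG-high cells were less frequent in the aPD-1 library than in the IgG library. They numbered 95 of 3356 cells after aPD-1 (2.83%, exact 95% interval 2.30 to 3.45%) and 183 of 2198 cells after IgG (8.33%, 7.20 to 9.56%). The whole distribution was shifted: the median share of the 6 genes over all kept cells was 0.320% in aPD-1 and 0.453% in IgG, and the highest single cell was an aPD-1 cell at 4.87%. The threshold cut a continuous tail, with the last cells inside at 1.021, 1.022 and 1.023% and the first cells outside at 1.021, 1.018 and 1.018%. Among kept cells, all of 5000 UMIs or more, the order of the libraries was the same in each depth range. Barcodes below the filter, of 1000 to under 5000 UMIs and at most 10% mitochondrial UMIs, had the opposite order. Their summed share of the 6 genes was 0.761% in aPD-1 and 0.433% in IgG. Among cells of 5000 to under 10000 UMIs, 7.18% of aPD-1 cells (30 of 418) and 14.9% of IgG cells (39 of 261) were IEG-high. At 10000 to under 20000 UMIs the shares were 2.65% of aPD-1 and 10.7% of IgG cells, and at 20000 UMIs or more 1.51% and 5.30%. After each cell was thinned to 5000 UMIs they were 2.89% of aPD-1 and 8.23% of IgG cells. The intervals cover counting error only, and the spread between replicate cultures is unknown. Barcodes of under 500 UMIs, present only in the aPD-1 matrix, carried 0.267% of their UMIs in the 6 genes, compared with 1.29% over the summed aPD-1 IEG-high cells.

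**Figure D1:**
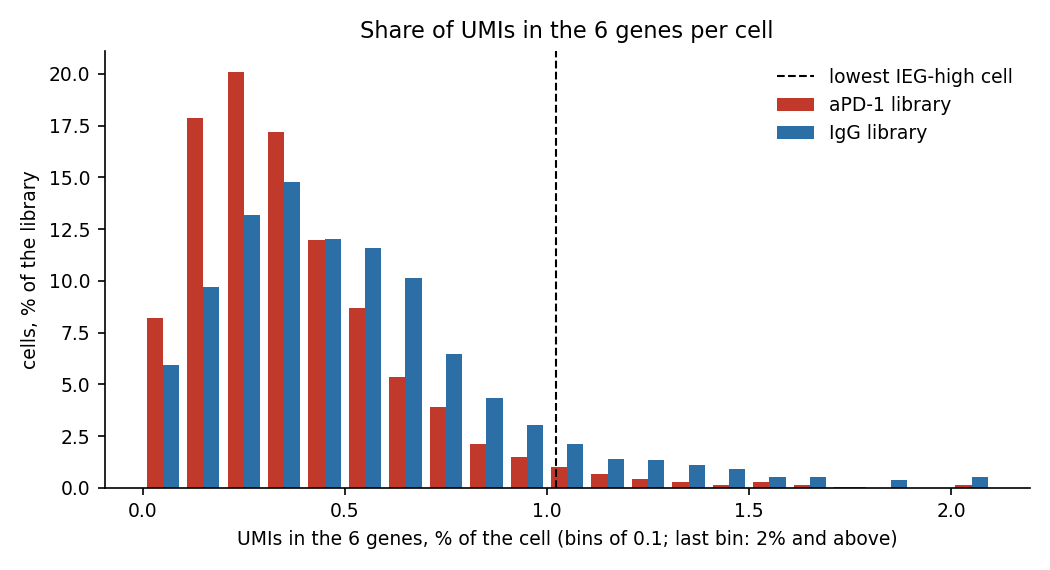
Percentage of the cells of each library (vertical axis) by the percentage of a cell's UMIs in the 6 genes (horizontal axis, bins of 0.1); red bars are aPD-1, blue bars IgG, and the dashed line marks the lowest IEG-high cell. The IgG bars lie above the aPD-1 bars in the bins from 0.4% upward except those that start at 1.7% and at 1.9%, the last of which is empty in both libraries, and no gap separates the IEG-high cells from the rest.

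The 6 genes chose these cells, so their levels are given as a description. Jun supplied most of the signal: it was at 6483 CPM in IEG-high cells against 1697 CPM in other cells of aPD-1, and at 6699 against 2120 CPM in IgG. Over single IEG-high cells Jun ran from 1212 to 26041 CPM with a median of 6083 CPM in aPD-1, and from 2464 to 17382 CPM with a median of 6593 CPM in IgG. Jun made up 50.2% of the six-gene UMIs of aPD-1 IEG-high cells and 50.5% of those of IgG IEG-high cells, and was the most abundant of the 6 in 92 of 95 aPD-1 and 172 of 183 IgG IEG-high cells. Fos was at 2467 against 613 CPM in aPD-1 and at 2927 against 912 CPM in IgG. Fosb was at 1583 against 399 CPM in aPD-1 and 1368 against 435 CPM in IgG. Ier2 was at 1251 against 301 CPM in aPD-1 and 1260 against 407 CPM in IgG. Egr1 was at 1051 against 304 CPM in aPD-1 and 882 against 354 CPM in IgG, and Egr2, the lowest, at 83.9 against 23.8 CPM and 121 against 38.3 CPM. Over single IEG-high cells Fos ran from 0 to 8732 CPM with a median of 2279 CPM in aPD-1, and from 94.8 to 14133 CPM with a median of 2683 CPM in IgG. Egr2 had no UMI in some IEG-high cells of each library, while Jun, Fosb, Egr1 and Ier2 had at least 1 UMI in each of them.

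**Figure D2:**
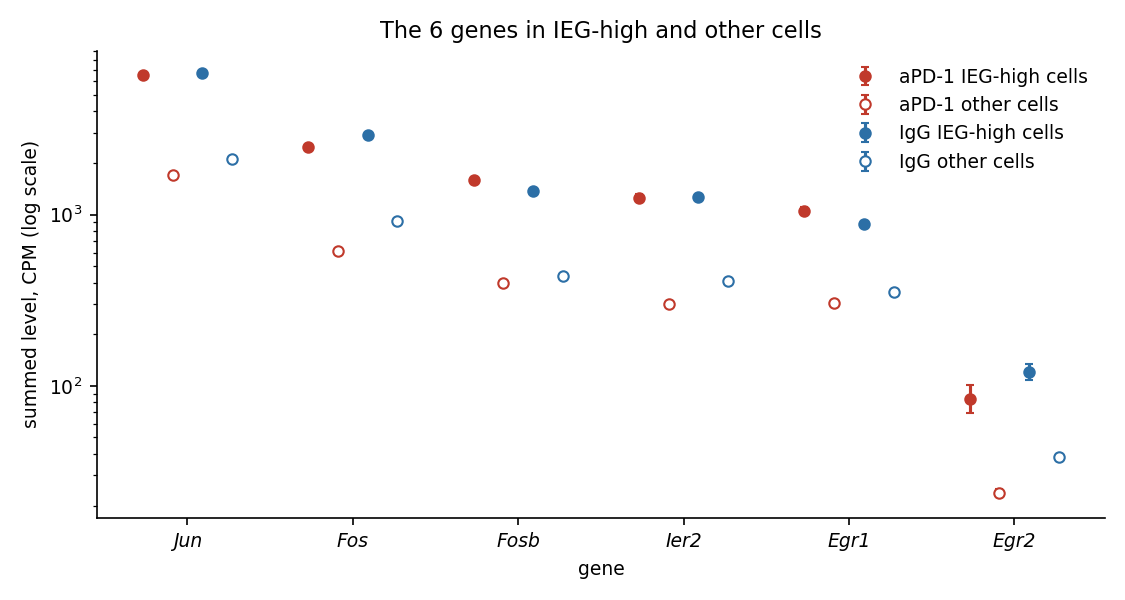
Summed level of each of the 6 genes (vertical axis, CPM on a log scale) in IEG-high cells (filled) and other cells (open) of the aPD-1 (red) and IgG (blue) libraries; bars are exact 95% Poisson intervals and are often smaller than the point. Each filled point lies above the open point of its library, as the choice of cells requires.

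A gene's own contribution to the choice can be removed by choosing the cells on the other 5 genes. Each left-out gene was still higher in the chosen cells. Jun had a ratio of 2.93 in aPD-1 (interval 2.86 to 3.00) and 2.52 in IgG (2.48 to 2.56), and Fos 3.33 in aPD-1 and 2.92 in IgG. Ier2 gave 3.87 and 2.84, Egr2 3.49 and 2.91, Fosb 3.29 and 2.75, and Egr1 3.24 and 2.35 in the same order of libraries. As a description of the choice, of the 278 IEG-high cells, 201 (72.3%) stayed in the top without Jun and 273 (98.2%) without Egr2, the most and the least abundant of the 6. The top cells by Fos, Fosb, Egr1 and Egr2 and the equally large top by Jun and Ier2 shared 123 cells, 44.2% of each.

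Outside the 6 genes, the rest of the immediate early programme had the largest number of counted genes of the 19 lists described. It was also the longest list, so its rank by number partly follows its size. A gene was counted when it averaged at least 10 CPM, differed at least 1.5-fold in the same direction in both libraries and had exact 95% counting intervals beyond 1. Of 6904 genes compared, 368 were counted as higher in IEG-high cells (5.33%) and 43 as lower (0.623%). Of 44 other immediate early genes that reached 10 CPM, from a list of 51, 31 were counted as higher and 0 as lower. Their median log2 ratio was 1.09 in aPD-1 and 0.97 in IgG, against 0.19 and 0.07 over all genes compared. Of the 44, 43 had a ratio above 1 in aPD-1 and 42 in IgG. Replication histones had a larger counted share, 6 of 8, with medians of 1.17 in aPD-1 and 0.87 in IgG. The type I interferon medians were 1.36 and 0.67. Summed over the whole list, the level was 17418 CPM in IEG-high cells against 7463 CPM in other cells of aPD-1 and 16624 against 8024 CPM in IgG. On the log2 scale all ratios carry a pseudocount of 1 CPM. Cells are not replicates, so these counts describe 2 libraries.

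Signalling and mRNA regulators of the list are given first. Dusp1, a phosphatase that switches off MAP kinases, was at 680 CPM in IEG-high cells against 154 CPM in other cells of aPD-1 and at 746 against 236 CPM in IgG, ratios of 4.41 (4.12 to 4.72) and 3.17 (3.03 to 3.31). Btg2, an antiproliferative gene, was at 25.5 against 5.14 CPM in aPD-1 and 34.8 against 9.98 CPM in IgG. Zfp36, which encodes the mRNA decay factor tristetraprolin, was at 278 against 85.1 CPM in aPD-1 and 257 against 83.3 CPM in IgG. Socs3, an inhibitor of cytokine signalling, was at 248 against 77.0 CPM in aPD-1 and 245 against 107 CPM in IgG. In these 4 genes the level of IEG-high cells was above that of the other cells by over 2-fold in each library. Among AP-1 and related transcription factors, Junb was at 2209 against 698 CPM in aPD-1 and 2470 against 939 CPM in IgG, Jund at 1796 against 770 CPM and 1463 against 645 CPM, and Atf3, a stress-induced relative, at 93.7 against 32.1 CPM and 104 against 38.3 CPM. The Krüppel-like factors Klf2 (1446 against 438 CPM in aPD-1, 1153 against 492 CPM in IgG) and Klf6 (1621 against 569 CPM in aPD-1, 1464 against 602 CPM in IgG) were of similar abundance. Csrnp1, a nuclear factor, had ratios of 2.43 in aPD-1 and 2.41 in IgG, and Gadd45g, a stress sensor, 2.85 and 2.24. Id3, an inhibitor of basic helix-loop-helix factors, had the most unequal pair of the 44, with a ratio of 5.71 (5.18 to 6.29) in aPD-1 and 2.096 (1.94 to 2.26) in IgG. In aPD-1 IEG-high cells 88 of its 471 UMIs came from 1 cell, compared with 52 of 907 for Dusp1 and 142 of 2947 for Junb.

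Not every immediate early gene followed. Ier3, a survival gene, was at 251 CPM in IEG-high cells against 322 CPM in other cells of aPD-1 and at 211 against 245 CPM in IgG, ratios of 0.780 and 0.859. Fosl1, an AP-1 subunit of the same family as Fos, was at 60.0 against 57.1 CPM in aPD-1 and 41.5 against 38.9 CPM in IgG, with intervals of its ratio from 0.831 to 1.31 and from 0.886 to 1.28. Hbegf, a ligand of the EGF receptor, had ratios of 1.46 and 1.14. Dusp2, a nuclear phosphatase, had a ratio of 1.71 (1.378 to 2.103) in aPD-1 and 0.871 (0.695 to 1.08) in IgG. Setting the other cells to the cluster make-up of the IEG-high cells left 27 of the 44 genes counted as higher, and setting them to the same UMI make-up left 28. Without the fibroblast-like cluster 30 of 45 were counted as higher, with medians of 1.13 in aPD-1 and 0.94 in IgG.

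**Figure D3:**
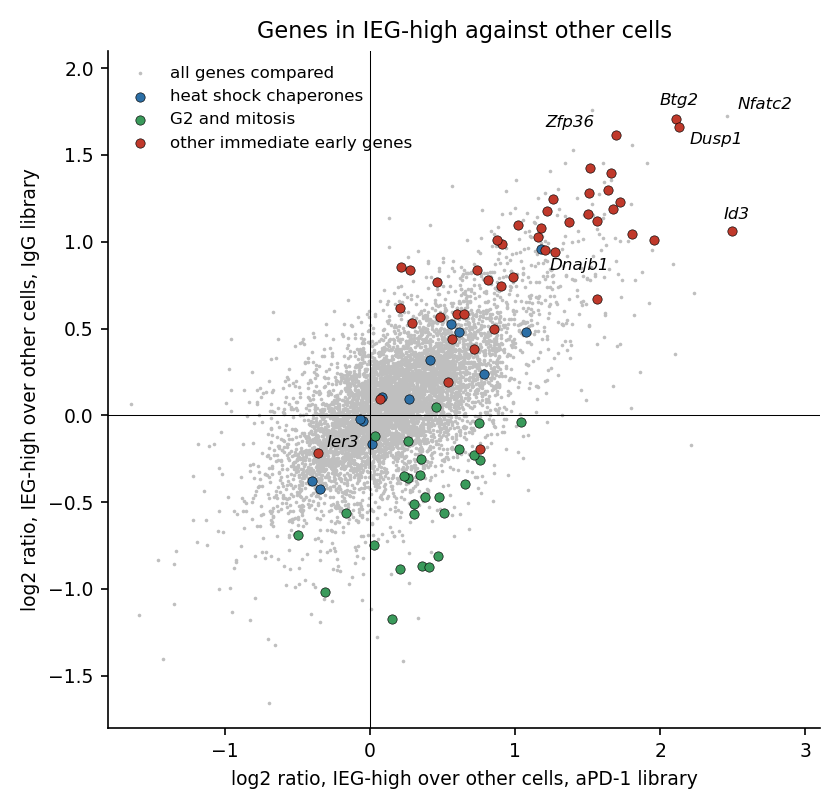
Log2 ratio of IEG-high over other cells in the aPD-1 library (horizontal axis) and in the IgG library (vertical axis), with a pseudocount of 1 CPM, for the 6904 genes compared (grey); red points are other immediate early genes, blue points heat shock chaperones and green points G2 and mitosis genes. Most red points lie at the upper right, blue points near the centre, and green points mostly right of 0 and below 0.

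Lists of pathways that feed into these genes or share regulators with them had fewer counted members. Of 8 ERK feedback genes compared, 2 were counted as higher, Dusp6 with ratios of 1.93 in aPD-1 and 1.75 in IgG, and Phlda1, which is also in the immediate early list, with 1.98 and 1.74. The cyclin gene Ccnd1 had ratios of 0.826 and 0.816. None of 14 growth factor receptor and upstream signalling genes was counted in either direction. Of 12 SRF and MRTF targets only Filip1l was counted (2.74 in aPD-1, 2.12 in IgG), while the cytoskeletal gene Cnn2 had ratios of 1.001 and 0.997. Of 7 YAP and TEAD targets 3 were counted as higher, led by the matricellular gene Cyr61 at 1245 against 419 CPM in aPD-1 and 1117 against 514 CPM in IgG. At the cluster make-up of the IEG-high cells 1 of 8 YAP and TEAD targets was counted, with medians of 0.44 in aPD-1 and 0.18 in IgG, against 0.88 and 0.66 before matching. Of 13 heat shock chaperones 1 was counted, the Hsp40 gene Dnajb1, at 673 against 296 CPM in aPD-1 and 749 against 385 CPM in IgG. The mitochondrial chaperones Hspd1 and Hspe1 had ratios of 0.787 and 0.757 in aPD-1 and 0.744 and 0.770 in IgG. Of 19 ATF4 and unfolded protein response genes 2 were counted as higher and 1 as lower. Ddit3, which encodes the stress factor CHOP, had ratios of 1.92 in aPD-1 and 1.89 in IgG, Ddit4, an mTOR inhibitor gene, 2.22 and 1.61, and Psat1, an enzyme of serine synthesis, 0.658 and 0.541. Of 11 p53 targets 1 was counted as higher, the polo-like kinase gene Plk2, which is also in the immediate early list, with ratios of 2.98 and 1.60. At matched clusters 1 ATF4 gene was counted as higher and 0 as lower, and 0 p53 targets were counted.

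NF-κB targets and genes of the BMP, TGF-beta and Notch pathways were higher too. Of 18 NF-κB targets compared, 10 were counted as higher and 0 as lower. Nfkbia, the inhibitor that NF-κB induces against itself, was at 1974 CPM in IEG-high cells against 901 CPM in other cells of aPD-1 and at 2163 against 1000.2 CPM in IgG. Tnfaip3, another feedback inhibitor, had ratios of 3.71 in aPD-1 and 2.13 in IgG, and the chemokine gene Cxcl1 1.96 and 2.25. The antioxidant gene Sod2 had ratios of 1.02 and 0.886. Setting the other cells to the cluster make-up of the IEG-high cells left 5 of these 18 counted. Of 13 BMP, TGF-beta and Notch genes 6 were counted as higher: Id1, Id3 and Hes1, which are also in the immediate early list, and Skil, Smad7 and Tgfb2. Hes1, a Notch-induced repressor, was at 116 against 36.6 CPM in aPD-1 and 303 against 123 CPM in IgG. Of 17 extracellular matrix genes 5 were counted as higher, among them Timp3, an inhibitor of metalloproteinases, at 122 against 58.9 CPM in aPD-1 and 114 against 61.3 CPM in IgG, and Dcn, the decorin gene, at 555 against 321 CPM in aPD-1 and 726 against 444 CPM in IgG. Dcn is also a fibroblast marker. The count was 2 of 17 at the cluster make-up of the IEG-high cells and 2 of 17 without the fibroblast-like cluster.

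Interferon-induced genes were higher in IEG-high cells, and most of the counted genes were not counted after matching of the clusters. Of 24 type I interferon genes compared, 13 were counted as higher and 0 as lower, with median log2 ratios of 1.36 in aPD-1 and 0.67 in IgG. Ifit3, an antiviral effector, was at 142 against 53.02 CPM in aPD-1 and 135 against 46.3 CPM in IgG, and Ifit1 at 223 against 84.3 CPM and 139 against 69.3 CPM. Ifit3 and Ifit3b are near-identical genes whose reads the counting could split. At the cluster make-up of the IEG-high cells 1 of 24 was counted as higher. Within clusters the medians were 1.13 in aPD-1 and 0.28 in IgG for cluster 0, with 23 of 24 genes above 1 in both libraries, 0.54 and 0.56 for cluster 1, -0.19 and 0.40 for cluster 4, and 0.25 and -0.20 for cluster 5, whose leading genes include Mx1 and Oasl1. Without cluster 5, an alternative chosen with these values known, 11 of 23 were counted. Of 19 genes of MHC class I antigen presentation 6 were counted as higher, among them H2-Q4 (2.17 in aPD-1, 1.83 in IgG) and the peptide transporter gene Tap2 (1.97 and 1.63), and 2 at the cluster make-up of the IEG-high cells or without the fibroblast-like cluster. Of 11 genes tied to residual MC38 cells, a list chosen with results of these samples known and so no independent evidence of a direction, 3 were counted as higher: Cd274, which encodes PD-L1, at 63.7 against 27.0 CPM in aPD-1 and 59.4 against 23.8 CPM in IgG, Birc2, an inhibitor of apoptosis, at 88.4 against 29.6 CPM and 71.3 against 40.1 CPM, and Zeb2 at 219 against 129 CPM and 201 against 121 CPM. At matched clusters 1 of these 11 was counted.

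Genes of the cell cycle did not move as 1 group, and their lists depended on the make-up of the cells. Of 27 S phase genes 0 were counted as higher and 3 as lower: Ung, a uracil-DNA glycosylase, at 11.2 against 30.1 CPM in aPD-1 and 11.5 against 25.5 CPM in IgG, Rpa2, a single-strand DNA binding subunit, and Rrm2, a ribonucleotide reductase subunit. The count of lower S phase genes was 1 at matched clusters, at matched UMIs and without cluster 5, and 7 with the median of all genes set to 0; at matched UMIs the median log2 ratio was 0.13 in aPD-1, against -0.23 before matching. Of the replication histones 6 of 8 were counted as higher, such as Hist1h2ap at 617 against 285 CPM in aPD-1 and 575 against 281 CPM in IgG. Histone genes are near-identical and can share reads. At matched clusters 6 of 8 histones were counted, with medians of 1.12 in aPD-1 and 0.86 in IgG. The count was 7 of 8 at matched UMIs and 9 of 10 without the fibroblast-like cluster. Without cluster 5, 3 of 7 histones were counted and the IgG median was 0.35, against 0.87 with it. In cluster 0 only 1 of 5 was above 1 in both libraries, against 5 of 6 in cluster 1, 4 of 5 in cluster 4 and 10 of 10 in cluster 5. None of 27 G2 and mitosis genes was counted in both libraries, yet 24 had a ratio above 1 in aPD-1 and 1 in IgG. The IgG direction did not hold at matched clusters, where the medians were 0.62 in aPD-1 and 0.06 in IgG, nor within cluster 1, led by Cdc20, where they were 0.99 and 0.26 and 22 of 31 genes were above 1 in both libraries. Within cluster 5 they were 0.17 and 0.38. The IgG median stayed below 0 in the other clusters examined: cluster 0 had -0.35 in aPD-1 and -0.23 in IgG (9 genes). Cluster 4 had 0.19 and -0.08 (13 genes). The opposite directions remained at matched UMIs, with medians of 0.65 in aPD-1 and -0.25 in IgG, and without cluster 5, with 0.49 and -0.45. Cholesterol synthesis (21 genes) and hypoxia and glycolysis (19 genes) had 0 counted in either direction.

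Across the whole transcriptome, Nfatc2, a calcium-regulated transcription factor, was second to Btg2 by the ratio in the library where it was smaller. It was at 89.9 CPM in IEG-high cells against 15.5 CPM in other cells of aPD-1 and at 64.9 against 18.9 CPM in IgG. Tnfaip6, a secreted hyaluronan-binding protein, was at 30.7 against 9.96 CPM in aPD-1 and 62.0 against 17.6 CPM in IgG. Rgs3, a regulator of G protein signalling, was at 193 against 54.3 CPM in aPD-1 and 211 against 71.0 CPM in IgG. Ighm, the immunoglobulin mu chain gene, was at 22.5 against 5.26 CPM in aPD-1 and 28.4 against 9.76 CPM in IgG, while the B cell marker Ms4a1 had no UMI. Ctsc, a lysosomal protease gene, had ratios of 3.38 and 2.64, and Lbp, the lipopolysaccharide-binding protein gene, 2.62 and 2.53. The lower genes were modest in level. Dctpp1, a nucleotide-pool phosphatase, was at 66.0 against 129 CPM in aPD-1 and 50.5 against 102 CPM in IgG, and Sms, spermine synthase, at 61.5 against 118 CPM and 55.3 against 103 CPM. Klra4, Fam60a, Ahcy, Bok, Ak4, Cda and Tnnt2 were also lower, with ratios from 0.312 to 0.557 in aPD-1 and from 0.339 to 0.539 in IgG.

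The make-up of the RNA also differed. Ribosomal protein genes took 30.3% of the UMIs of IEG-high cells against 38.4% of those of other cells in aPD-1, and 29.4% against 34.8% in IgG. The nuclear non-coding RNA Malat1 was at 14429 against 8126 CPM in aPD-1 and 15894 against 9109 CPM in IgG, and Neat1, another nuclear RNA, at 699 against 312 CPM and 748 against 314 CPM. The CPM of the remaining genes shift with such shares, and the part of this in the ratios was not tested beyond centring. With the median of all genes set to 0 in each library, an alternative chosen after seeing the data, 252 genes were counted as higher and 111 as lower, and 28 of 44 other immediate early genes were counted as higher. Counts also depended on single cells: without the cell that held most UMIs of a gene, which lowers every ratio by construction, 264 of the 368 higher genes still met the fold and interval limits. The 10 CPM average was not applied again there. With the other cells set to the cluster make-up of the IEG-high cells 153 genes were counted as higher and 18 as lower, and with their UMI make-up matched 234 and 16.

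The levels of the other immediate early genes increased along the whole range of the share, not at the threshold alone. Each UMI was assigned at random to 1 of 2 equal sets, cells of each library were ranked on the first set into 20 equal bins, and levels were read from the second, so the same molecules did not rank and measure. The summed other immediate early genes were at 3270 CPM in the lowest bin, 7347 CPM in the tenth and 15717 CPM in the highest bin of aPD-1. In IgG the same bins were at 2602, 8167 and 18485 CPM. NF-κB targets were at 1436, 2965 and 5351 CPM in those bins of aPD-1, and at 1993, 3223 and 6440 CPM in IgG. Heat shock chaperones were flat by comparison, at 11094, 10373 and 10124 CPM in aPD-1 and 11796, 11755 and 12129 CPM in IgG. Median UMIs per cell were 18608 in the lowest and 13188 in the highest bin of aPD-1, and 20135 and 15141 in IgG.

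**Figure D4:**
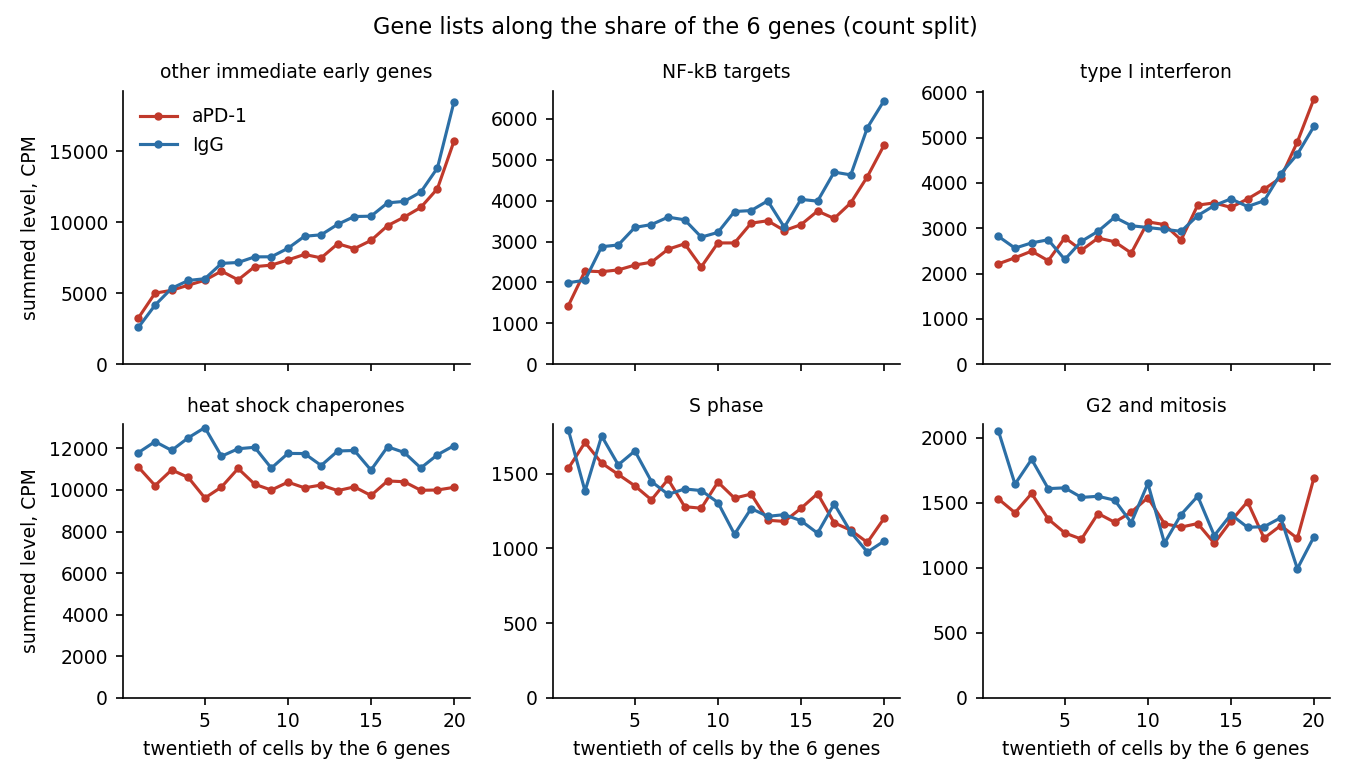
Summed level of 6 gene lists (vertical axes, CPM) in 20 equal bins of cells ranked by the share of the 6 genes within the aPD-1 (red) and IgG (blue) libraries, lowest share at the left; 1 set of UMIs ranked the cells and the other set gave the levels. The other immediate early genes are higher toward the right with a few small dips, and heat shock chaperones stay level. Interferon genes climb most in the last bins, and NF-κB targets climb in both the lowest and the last bins.

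IEG-high cells occurred in most transcriptional states but were unequally spread. The cells were clustered without the 6 genes, the other immediate early genes and the heat shock genes, which gave 9 clusters. Cluster 5, led by Ccl4, Mx1 and Oasl1, had the highest shares, with 20.5% of its aPD-1 cells (23 of 112, interval 13.5 to 29.2%) and 33.8% of its IgG cells (26 of 77, 23.4 to 45.4%) IEG-high. The fibroblast-like cluster 4, led by Lbp and Gsn, had 8.28% and 13.9% in the same order, and cluster 0, the largest, led by Mxd4 and Fndc7, 3.14% and 9.84%. Cluster 1, led by Cdc20 and Hmmr, had 1.48% of aPD-1 and 4.59% of IgG cells, and cluster 2, led by Hist1h1b, 1.76% and 4.07%. Cluster 3, led by the metallothioneins Mt2 and Mt1 and the hypoxia gene Car9, had 0 of 509 aPD-1 cells (upper bound 0.722%) and 1 of 186 IgG cells. In all 6 clusters with at least 50 cells of each library the share was lower in aPD-1. At the IgG library's cluster make-up the aPD-1 share over these clusters would be 3.88%, compared with 8.63% in IgG.

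**Figure D5:**
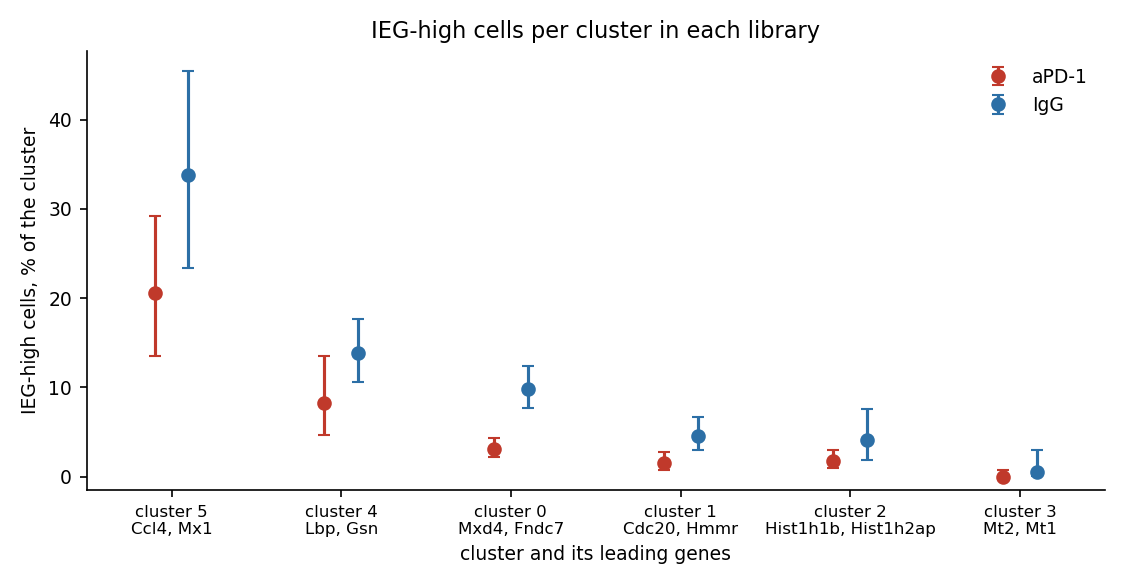
Percentage of IEG-high cells (vertical axis) in the 6 clusters with at least 50 cells of each library, each named by its leading genes; red points are aPD-1, blue points IgG, and bars are exact 95% binomial intervals that cover counting error only. The red point is below the blue point in each cluster, and cluster 5 is highest in both libraries.

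Many of the higher genes were also higher within clusters. In the 4 clusters with at least 10 IEG-high cells of each library, the median log2 ratio of the other immediate early genes was 0.67 in aPD-1 and 0.46 in IgG for cluster 0, 1.47 and 1.02 for cluster 1, 0.55 and 0.65 for cluster 4, and 0.85 and 1.06 for cluster 5. Dusp1, Zfp36, Junb, Klf2, Klf6, Socs3, Nfatc2 and Rgs3 were above the other cells in all 8 pairs of a cluster and a library. Btg2, Tnfaip6, Atf3, Ighm and Ctsc were above in 7 of 8, and Ifit3 in 5 of 8. Ahcy, Ak4, Fam60a, Sms and Tnnt2 were below in all 8 pairs. Dusp1 was at 870.2 CPM in IEG-high cells against 105 CPM in other cells of aPD-1 in cluster 1, and at 595 against 183 CPM in IgG. In cluster 5 it was at 557 against 187 CPM in aPD-1 and at 665 against 229 CPM in IgG. Junb in cluster 4 was at 2639 against 1214 CPM in aPD-1 and at 2786 against 1321 CPM in IgG. Of these 4 clusters cluster 1 had the lowest Dusp1 level in other cells and the largest ratio, in both libraries. Lbp, a marker of cluster 4, was above in 5 of 8.

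Between the libraries, IEG-high cells differed in few genes. Counting a gene when it averaged at least 10 CPM, differed at least 2-fold and had an interval beyond 1.5-fold, 46 of 7387 genes were higher in aPD-1 than in IgG IEG-high cells (0.623%) and 14 were lower (0.19%). The other cells, compared the same way, had 5 of 6947 genes higher (0.072%) and 19 lower (0.273%), and 3 genes were counted in both comparisons in the same direction (Hist1h1b higher, Hes1 and Lbp lower). For the 6 genes, whose sum was brought above 1 common threshold by the choice, the ratio of aPD-1 over IgG IEG-high cells was 0.968 for Jun, 0.843 for Fos, 1.16 for Fosb, 1.19 for Egr1, 0.993 for Ier2 and 0.695 for Egr2. The median log2 ratio of the other immediate early genes was 0.06, with 1 of 45 higher (Dusp2) and 1 lower (Hes1).

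Type I interferon genes were among those higher in aPD-1 IEG-high cells, while the differences in cell cycle lists depended on the cluster make-up. Of 24 type I interferon genes 5 were counted as higher (Ifi44, Irf7, Mx1, Oas2 and Oasl1), also at a matched cluster make-up. Ifi44 was at 95.2 CPM in aPD-1 IEG-high cells and at 40.6 CPM in IgG IEG-high cells. Of 29 G2 and mitosis genes 2 were counted, Top2a and Ube2c, with a list median log2 ratio of 0.62, and 0.45 at matched cluster make-up, where Ccnb1 and Ube2c were the genes counted. The S phase median was 0.45, and -0.01 at matched clusters. Of 10 replication histones 3 were counted as higher with a median of 0.41, and at matched clusters 0 as higher and 2 as lower (Hist1h2ae and Hist1h2ap) with a median of -0.14. Cluster 5 held 24.2% of aPD-1 and 14.2% of IgG IEG-high cells, cluster 2 14.7% and 4.92%, and cluster 4 14.7% and 30.1%. Aspm, a spindle pole gene, was at 22.5 CPM in aPD-1 IEG-high cells and at 4.47 CPM in IgG IEG-high cells, Rad51ap1, a DNA repair gene, at 34.5 and 8.63 CPM, and Prkg2, a cGMP-dependent kinase, at 21.7 and 5.75 CPM in the same order. Several top ratios came from 1 or 2 cells. Ccl4, a chemokine gene, had 29 of its 31 UMIs in aPD-1 IEG-high cells in 1 cell, and its ratio of 7.27 was 0.944 without the top cell of each library. Bgn, the biglycan gene, had 22 of 29 UMIs in 1 cell, Cryab, a small heat shock protein gene, 21 of 39, Bbs2 39 of 70 and Fam132a 11 of 23. Without the top cells, an alternative added after seeing the data, Ccl4, Fam132a and Tnnt2, the cardiac troponin T gene, were no longer counted, and 35 of the 46 genes were.

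The genes lower in aPD-1 IEG-high cells rested less on single cells, with 1 exception. Cxcl9, an interferon-gamma-induced chemokine gene, was at 68.2 CPM in aPD-1 IEG-high cells and at 200.3 CPM in IgG IEG-high cells, a ratio of 0.340 (0.270 to 0.425). Hes1 was at 116 CPM in aPD-1 IEG-high cells and at 303 CPM in IgG IEG-high cells, a ratio of 0.383 (0.321 to 0.455), beside 0.299 in the other cells. Has2, a hyaluronan synthase gene, was at 16.5 and 47.6 CPM in the same order, Enpp2, the autotaxin gene, at 5.25 and 20.8 CPM, and Ifitm1 at 6.00 and 21.7 CPM. Hsd17b7, a cholesterol synthesis enzyme gene, was at 8.99 and 26.8 CPM, and Lbp at 23.2 and 57.2 CPM. Gad1, whose enzyme makes the transmitter GABA, was the exception, with 40 of its 66 UMIs in IgG IEG-high cells in 1 cell. Each of these 8 genes was still counted without the top cell of each library. All but Ifitm1 were also lower in aPD-1 among the other cells. There the ratio was 0.293 for Gad1, 0.383 for Enpp2, 0.393 for Lbp, 0.558 for Has2, 0.684 for Cxcl9, 0.697 for Hsd17b7 and 1.01 for Ifitm1. Gad1 and Enpp2 did not reach the average of 10 CPM in the other cells, so they could not be counted there.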

How the data were processed

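Per the file headers and the labels, the authors deposited 1 matrix of UMI counts per library, with software version 3.0.2 in the headers. The submitters' processing notes name Cell Ranger, mm10 and Seurat 2.1.0, and no gene annotation release. The aPD-1 matrix was unfiltered (519382 barcodes under 500 UMIs), whereas the 4351 barcodes of the IgG matrix all had 500 UMIs or more. Kept cells carried 61462778 UMIs in aPD-1 and 49422640 in IgG. Raw counts were summed over the IEG-high cells and over the other cells of each library and scaled to CPM. Ratios carry exact 95% intervals, which cover counting error only. With 1 library per treatment and cells that are not replicates, no p-value was computed. Genes were counted by the fold rules given with the results.

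Besides the 6 genes, the rule for named genes took up to 15 higher and 12 lower genes ranked by the ratio in the library where it was nearer 1, up to 3 high and 2 low genes of each list (12 and 4 of the immediate early list), and up to 8 higher and 8 lower genes between the libraries; unnamed gene models were left out. Other genes appear where a count of 5 or fewer is spelled out, where a list's counted genes are given, or as markers, and were then chosen after their values were seen. The members and all 19 lists were chosen with earlier results of these data known. Cells were clustered with scanpy 1.11.5 and leidenalg 0.10.2 in Python 3.11.15; 1 cluster was named from marker lists, and the others are given by number and leading genes. Doublets were neither called nor removed. Ranking by a random split of the counts, choosing cells without 1 of the 6 genes and matching the cluster or UMI make-up were the main alternatives. The procedure was tested on simulated counts that carried counting error only. They held no clumping of a gene's UMIs in single cells, so the test does not cover that spread. A few genes that the rule selects are not reported here.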

Additional observations from a re-analysis of the deposited data

Results flagged for a closer look

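Some values of IEG-high over other cells ran in opposite directions in the libraries. The difference was not tested, as each treatment had 1 library. The median log2 ratio of the G2 and mitosis genes was 0.36 in aPD-1 and -0.47 in IgG, but 0.62 and 0.06 at matched cluster make-up, where the opposition was no longer seen. Among single genes, the ratio of the spindle gene Aspm was 2.97 in aPD-1 and 0.530 in IgG. Mcm6, a subunit of the replicative helicase, had ratios of 1.24 in aPD-1 and 0.816 in IgG. Bgn had 7.38 in aPD-1 and 0.274 in IgG, Cryab 2.53 and 0.302, and Fam132a 1.75 and 0.367, in the same order. The aPD-1 values of Bgn, Cryab and Fam132a rested largely on 1 cell each.

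Barcodes outside the kept cells also carried the 6 genes. In the aPD-1 matrix, barcodes of 1000 to under 5000 UMIs and at most 10% mitochondrial UMIs had 0.761% of their UMIs in the 6 genes, against 0.433% in IgG. Barcodes over 10% mitochondrial with at least 500 UMIs had 0.510% in aPD-1 and 0.334% in IgG, and those of them with 5000 UMIs or more 0.571% and 0.576%. In aPD-1 barcodes under 500 UMIs the share was 0.267%, and the IgG matrix holds none. For the kept cells the summed shares were 0.355% in aPD-1 and 0.484% in IgG, so the order of the libraries among these shallow barcodes was the opposite of that among kept cells. The part of the cell filter in the library difference was not tested below 5000 UMIs.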

How the results depend on the processing

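No paired analysis was possible because each treatment had 1 library, and no replicate could be left out for the same reason. The library shares and the medians of the other immediate early genes kept their direction under the alternatives run; the directions of the cell cycle lists and of Ccl4 that turned are given with those results. The share of IEG-high cells was lower in aPD-1 except when the top 5% was taken within each library, which sets it to 5.01% in aPD-1 and 5.00% in IgG by construction; it was 0.924% in aPD-1 and 3.64% in IgG for a top 2%, and 6.41% and 15.5% for a top 10%. Genes higher in IEG-high than in other cells numbered 153 at matched cluster make-up, 234 at matched UMI make-up, 154 from 50 CPM and 79 at 2-fold. Lower genes numbered 18 at matched clusters, 16 at matched UMIs, 67 without Jun, 27 with equal weight per cell, 13 from 50 CPM, 4 at 2-fold, 111 with centring and 95 without each gene's highest cell. The median log2 ratio of the other immediate early genes in aPD-1 was 1.36 for a top 2% and 0.82 at matched clusters. Between the libraries, higher genes numbered 24 within-library, 26 for a top 10%, 25 without Jun, 70 from 10000 UMIs, 11 from 50 CPM, 87 from 1 CPM and 406 at 1.5-fold. Lower ones numbered 22 after thinning, 24 within-library, 34 for a top 2%, 7 for a top 10%, 23 without Fos, 4 without Jun, 5 from 50 CPM, 23 from 1 CPM and 223 at 1.5-fold. At 1.5-fold between the libraries the interval limit was loosened as well: it had to lie beyond 1, not beyond 1.5-fold. The cause of these changes was not tested, beyond the stricter or looser limits themselves. Matching on UMIs, centring, leaving out cluster 5 and leaving out each gene's highest cell were chosen after seeing the data. When each gene's highest cell was left out, the 10 CPM average was not applied again. Low genes are limited by depth, since 1 UMI in the 95 aPD-1 IEG-high cells is close to 1 CPM.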
